A study of Sus scrofa with 30 samples.

Results

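CSN2 encodes β-casein, the main casein of pig milk, and the genes described here are the 60 whose level followed that of CSN2 most closely in pig teat tissue. They were chosen by their Pearson r to CSN2 over all 30 arrays, out of 6565 genes that could be ranked. Each gene was represented by its single-symbol probe set with the highest mean. Another 200 genes had been left out before ranking: the milk proteins CSN1S1, CSN2, CSN3, PAEP and LALBA, the keratins KRT8, KRT18 and KRT19, LTF, WFDC2, NPG4 and MMP7, and all symbols beginning with SLC, ABC, CCL, CXCL or IL. The r of the chosen genes ran from 0.807 for RHOU down to 0.6547 for NUS1. The last genes inside the limit were SET at 0.656, PDIA3 at 0.6558 and NUS1, and the first ones outside were MARCKS at 0.6546, AZIN1 at 0.654 and FCGR2B at 0.6537, so the limit falls inside a continuous range. Over all ranked genes the median r was 0.01, and 377 genes had an r over 0.5.

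Caseins are secreted by luminal cells of the mammary alveoli. Prolactin acting through STAT5, together with glucocorticoids, switches on their genes in late pregnancy and lactation, and secretion then needs a large endoplasmic reticulum and Golgi apparatus, where the proteins are folded, glycosylated and packed. The teat carries the milk ducts to the skin, and its ducts are lined by keratin-rich luminal and basal epithelium set in connective tissue, smooth muscle and fat.

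The study compared teats of 10 peripubertal pigs of commercial dam lines, taken at slaughter at a mean end weight of 110 kg, to find genes that bear on inverted teats. The 5 affected animals (963, 964, 1037, 1059 and 1103) gave a normal and an inverted teat each, and the 5 non-affected animals (950, 957, 1040, 1058 and 1109) gave a normal teat. Epithelial and mesenchymal tissue of each teat was hybridised to its own Affymetrix Porcine Genome array, which makes 6 groups of 5 arrays. By breed, animals 1103 and 1109 were Pietrain x (Large White x German Landrace). Animals 957 and 963 were German Landrace. All others were Large White x German Landrace. Pregnancy, parity and lactation were not given in the sources used here. These are bulk samples, in which fewer cells of a type and less RNA per cell cannot be told apart.

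The values are log2 probe set levels as deposited, and array medians lay between 5.71 and 6.04. In the epithelial arrays the mean of KRT8, KRT18 and KRT19, keratins of luminal epithelium, lay between 6.75 and 10.66, and in the mesenchymal arrays between 2.38 and 11.14, so several mesenchymal arrays carried as much luminal keratin as epithelial ones. In several teats the order was against the tissue labels, with the higher keratin mean on the mesenchymal array. These were the normal teats of 957 (10.37 epithelial, 10.65 mesenchymal) and 964 (10.29, 10.52) and the inverted teats of 964 (10.49, 11.14), 1059 (9.59, 9.65) and 1103. The gap was widest in the inverted teat of animal 1103, with 6.75 on the epithelial array and 8.76 on the mesenchymal array. For the genes' median r within epithelial tissue, the teat difference and the interaction, values without that epithelial array are given as well; that omission was chosen after the data were seen.

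CSN2 itself fell into 2 separate ranges that followed the animal and not the teat or the tissue. On the epithelial arrays of animals 950, 957, 963 and 964 it measured 13.90, 14.94, 15.06 (963, normal), 14.80 (963, inverted), 13.16 (964, normal) and 15.33 (964, inverted). On their mesenchymal arrays it measured 15.47, 13.83, 14.76, 12.94, 16.14 and 16.17 in the same order. On the 18 arrays of the other 6 animals it lay between 4.0025 and 6.39. It was above the 30th percentile of its array on 13 of these 18 and above the array median (5.71 to 5.87) on 3. Animals 950 and 957 were non-affected and 963 and 964 affected, so both states are present on either side. Breed was split unevenly: both German Landrace animals (957 and 963) had high CSN2, and both Pietrain crosses (1103 and 1109) had low CSN2. Large White x German Landrace animals were on either side. The part of breed was not tested. The animals with high CSN2 also bear the lowest animal numbers (950 to 964, against 1037 to 1109). An order of collection or handling that followed these numbers could not be told apart from the animals. The naming of these 4 and 6 animals follows the measured CSN2 level and was drawn up after the values were seen. It defines no group of the study, and values by these animals are given as descriptions without a test.

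**Figure D1:**
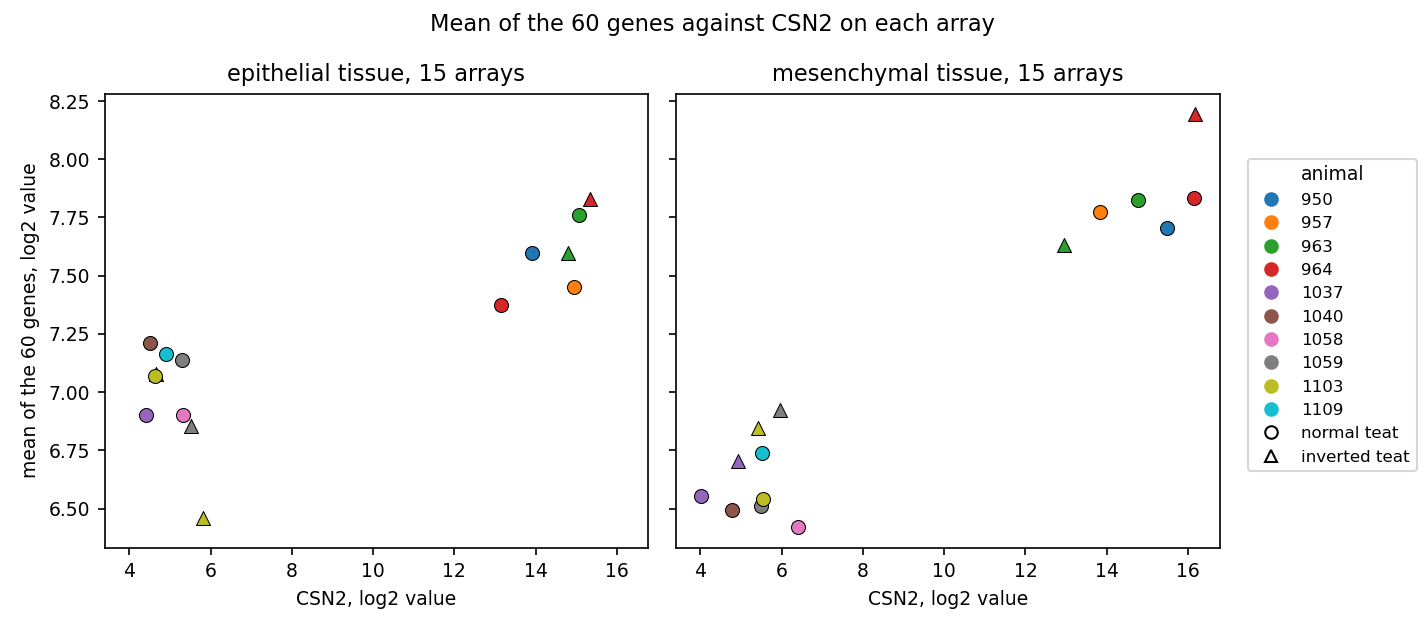
Mean log2 value of the 60 genes (vertical axis) against the log2 value of CSN2 (horizontal axis) on each of 15 epithelial and 15 mesenchymal arrays; colour marks the animal, circles normal and triangles inverted teats. The 12 arrays of animals 950, 957, 963 and 964 lie to the right and above the 18 others, with means of 7.37 to 7.83 against 6.46 to 7.21 in epithelial and 7.63 to 8.19 against 6.42 to 6.92 in mesenchymal tissue.

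The r of the 60 genes was higher in mesenchymal than in epithelial tissue. Over the 15 mesenchymal arrays their median r to CSN2 was 0.81 (0.66 to 0.95), and 60 of 60 had an r over 0.5, against 19.4% of all ranked genes. Over the 15 epithelial arrays the median was 0.61 (0.41 to 0.87), and 52 of 60 were over 0.5, against 4.08% of ranked genes. Without the epithelial inverted array of animal 1103 that median was 0.64. The r was higher in mesenchymal tissue for 57 genes and in epithelial tissue for 3. The arrays that give these r share animals, and the choice of the genes used them, so the values describe the genes and support nothing further.

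In mesenchymal tissue the highest r belonged to GALNT7 (0.95), an enzyme of mucin-type O-glycosylation in the Golgi, and to RHOU (0.92), PIGR (0.92), TMX1 (0.92) and NDFIP2 (0.91). The lowest belonged to DNM3 (0.66), ROPN1L (0.69), C17H8orf4 (0.70), AP5Z1 (0.71) and ETV5 (0.71). In epithelial tissue the order was different: DNM3, a dynamin of membrane fission, led with 0.87, followed by ALPL (0.81), PELI1 (0.77), SKAP2 (0.76) and CSN1S2 (0.76). CSNK1A1 (0.41), CHSY1 (0.42), RAP1B (0.42), FAM198B (0.44) and LOC102162486 (0.45) came last there. DNM3 was thus first in one tissue and last in the other.

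**Figure D2:**
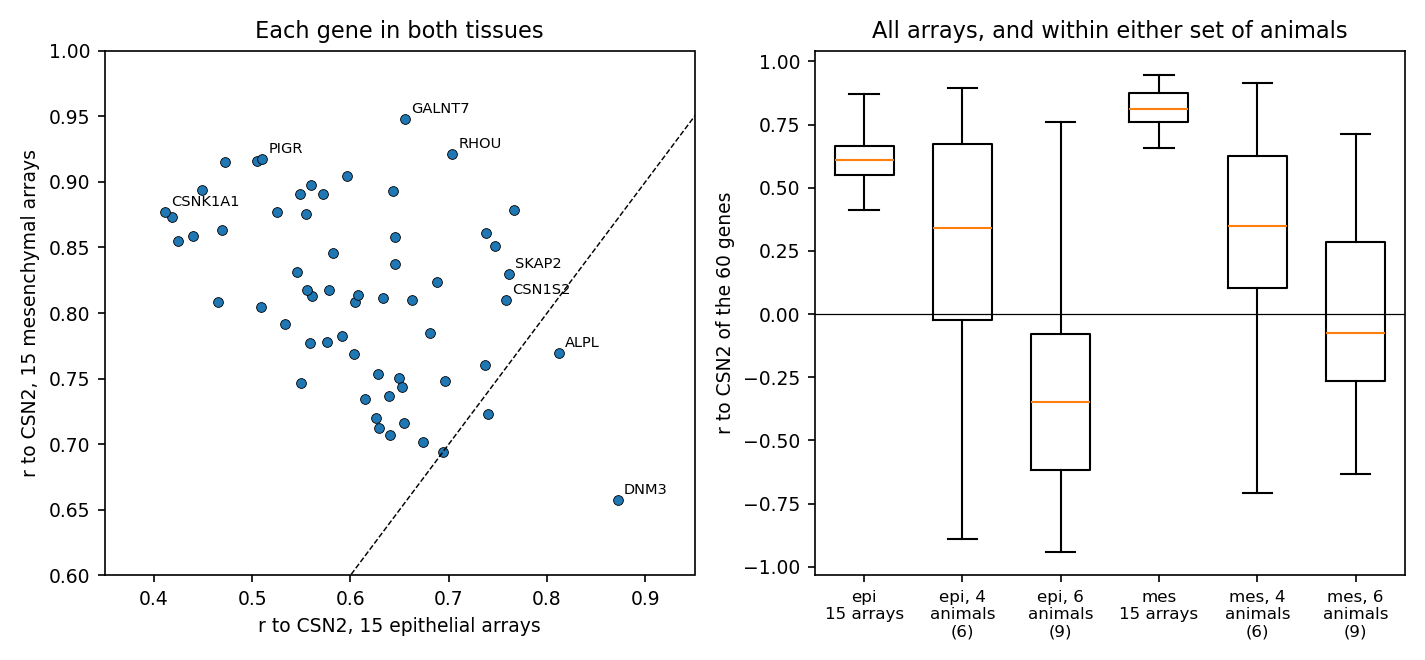
Left, r to CSN2 of each of the 60 genes over the 15 epithelial (horizontal axis) and the 15 mesenchymal arrays (vertical axis), with the line of equal r dashed; most points lie above it. Right, the 60 values of r in each tissue over all 15 arrays and within the arrays of the 4 animals with high CSN2 and of the other 6 (boxes span the quartiles, whiskers the full range); the median falls from 0.61 to 0.34 and -0.35 in epithelial and from 0.81 to 0.35 and -0.07 in mesenchymal tissue.

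Inside either set of animals the r of the genes to CSN2 was lower. Over the 12 arrays of animals 950, 957, 963 and 964 the median r was 0.34, with 14 of 60 genes over 0.5, against a median of 0.13 and 6.0% over all ranked genes. Over the 18 arrays of the other 6 animals it was -0.25, with 0 of 60 over 0.5, against -0.02 and 4.81%. The pooled r that chose the genes therefore rests on the step between 4 and 6 animals. Within the 6 mesenchymal arrays of the 4 animals, 25 of 60 genes were over 0.5 against 17.5% of ranked genes. They were led by CSN1S2 (0.91), MRAP (0.88), CSNK1A1 (0.83), NDFIP2 (0.82) and PGM2 (0.81), while WEE1 stood at -0.71. Within their 6 epithelial arrays it was again 25 of 60, against 25.3% of ranked genes, with SEPT11 and REXO2 highest (both 0.89) and NUS1 lowest (-0.89). On the 18 arrays of the 6 other animals CSN2 was above the array median on only 3, so r to CSN2 there rests on low values. In their 9 epithelial arrays r was -0.94 for PDXK and -0.91 for XBP1, and FAM198B (0.76) and A2M (0.73) were highest. Without the inverted array of animal 1103 these 4 values were -0.91, -0.85, 0.61 and 0.52. The median over the 60 genes was then -0.14 in place of -0.35, and that of ranked genes -0.14 in place of -0.17.

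The clearest separation by animal was found for RHOU and SKAP2, the only chosen genes whose arrays of the 4 animals all lay above all arrays of the other 6 in both tissues. RHOU encodes an atypical small GTPase that acts on cell shape and adhesion. On the epithelial arrays it measured 6.26 (950), 6.29 (957), 6.18 and 6.23 (963, normal and inverted) and 5.97 and 6.46 (964), and at most 5.94 (1059, normal) in the other animals, down to 4.91 (1103, inverted). On the mesenchymal arrays of the 4 animals it lay between 6.37 and 6.81, and in the others between 5.41 and 6.05. The gap was narrow in epithelial tissue, 5.97 against 5.94. SKAP2, an adaptor of Src family kinases, lay between 7.11 and 7.38 in the epithelial arrays of the 4 animals and between 6.15 and 7.0004 in the others. Its mesenchymal ranges were 7.16 to 7.56 and 5.95 to 7.0015.

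Such a separation without overlap was seen in epithelial tissue for 3 of the 60 genes, RHOU, SKAP2 and DNM3, where 0.0762% of all ranked genes showed it. In mesenchymal tissue it was seen for 29 of 60, against 2.56% of ranked genes, and in both tissues for 2, against 0.0305%. The rule chose genes on this same step, so nothing is read from these shares. DNM3 was separated in epithelial tissue only, with 4.84, 4.71, 4.64, 5.00, 4.27 and 4.60 in the 4 animals and 3.66 to 4.17 in the others. In mesenchymal tissue its ranges overlapped (4.14 to 5.21 against 2.23 to 4.47). Most DNM3 values lie at or below the 30th percentile of the arrays. For 30 of the 60 genes the ranges overlapped in both tissues.

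Other measures of the same arrays moved along with this step, in mesenchymal tissue most of all. The keratin mean of the mesenchymal arrays lay between 9.15 and 11.14 in the 4 animals and between 2.38 and 9.65 in the others. The mean of 22 luminal epithelium genes lay between 7.90 and 9.06 against 3.95 and 8.03, and that of 12 adipocyte genes between 8.25 and 9.54 against 9.59 and 10.26. The array medians did not overlap either (5.89 to 6.04 against 5.71 to 5.85). In epithelial tissue these measures overlapped widely: the keratin mean lay between 9.67 and 10.66 against 6.75 and 10.52, and the array medians between 5.76 and 5.88 against 5.76 and 5.87. The 60 genes had a median r to the keratin mean of 0.70 over the mesenchymal and 0.56 over the epithelial arrays. For all ranked genes that median was 0.04 and 0.05, and CSN2 itself stood at 0.75 and 0.34 to the keratins. Within the 6 animals with low CSN2 the genes' median was 0.28 and 0.55, against 0.07 and 0.10 for ranked genes. CSN2 stood at -0.01 and -0.63 to the keratins there, where it was above the array median on only 3 of 18 arrays. Without the epithelial inverted array of animal 1103 the epithelial values within these animals were 0.47 for the genes and -0.23 for CSN2. The part of the epithelial and fat cell content in the genes' r to CSN2 was not tested.

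**Figure D3:**
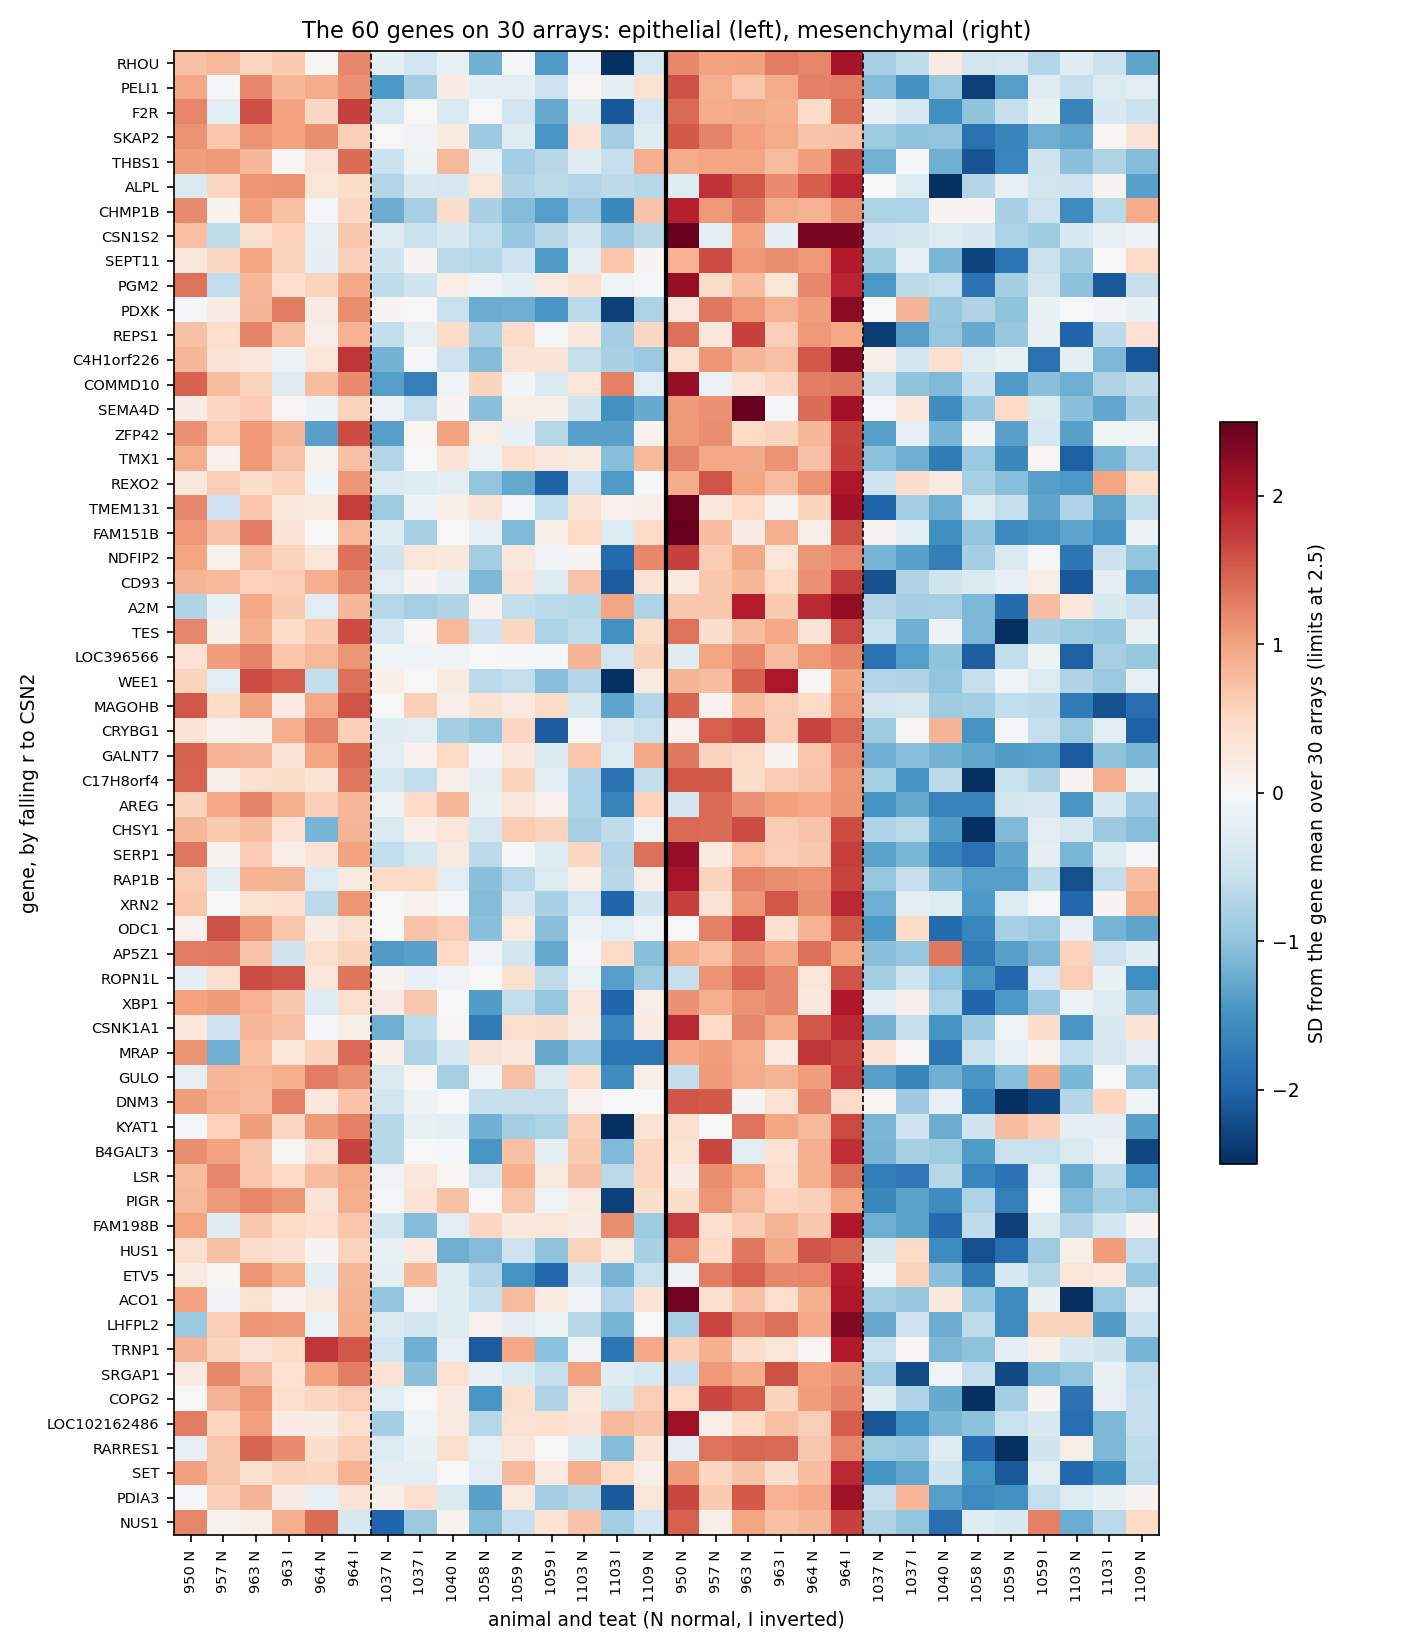
Level of each of the 60 genes (from the highest r to CSN2 at the top) on 30 arrays, in SD from the gene's mean over all arrays, red above and blue below. Columns run by animal within epithelial (left) and mesenchymal tissue (right), N for normal and I for inverted teats; dashed lines part animals 950, 957, 963 and 964 from the other 6, and the step is stronger in mesenchymal tissue.

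Milk proteins and the secretory pathway are represented by several of the genes. CSN1S2 is the αs2-casein gene of the casein cluster, and it was the only casein not left out by the rule. On the mesenchymal arrays it measured 9.53 (950), 8.64 and 8.62 (964, normal and inverted), 6.52 and 4.54 (963) and 4.4967 (957), and from 3.53 to 4.71 in the other 6 animals. Animal 957 and the inverted teat of 963 thus lay within the range of the animals with low CSN2. On the epithelial arrays it reached 6.12 (950), 5.99 and 4.64 (964, inverted and normal), 5.84 and 5.56 (963, inverted and normal) and 3.93 (957), against 3.44 to 4.39. The caseins that the rule left out had a wider step: CSN1S1 lay between 8.54 and 12.42 on the arrays of the 4 animals and between 0 and 6.31 on the others, and CSN3 between 6.85 and 11.14 and between 0 and 5.10.

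PIGR carries immunoglobulin A across epithelium into milk. On the mesenchymal arrays it measured 5.63 (950), 6.78 (957), 6.28 and 5.81 (963) and 5.90 and 6.58 (964), and from 1.94 to 4.88 in the other 6 animals. On the epithelial arrays the ranges overlapped, 5.44 to 6.97 against 0.88 to 6.15, with the lowest value in the inverted teat of animal 1103. PGM2, a sugar phosphate mutase and the only chosen gene of the 6 measured on a lactose synthesis list, lay between 6.41 and 7.47 against 5.08 and 5.99 in mesenchymal tissue and between 5.90 and 7.0036 against 5.89 and 6.47 in epithelial tissue.

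XBP1, the transcription factor that expands the secretory endoplasmic reticulum, was among the 60 with a step in mesenchymal tissue. Its arrays there read 10.99 (950), 10.90 (957), 10.98 and 11.01 (963) and 10.67 and 11.29 (964), and 9.87 to 10.64 in the others. Its epithelial ranges overlapped (10.46 to 10.96 against 9.87 to 10.82). PDIA3, which forms disulphide bonds in glycoproteins, lay between 10.37 and 10.82 against 9.68 and 10.42 in mesenchymal tissue and between 10.10 and 10.43 against 9.52 and 10.29 in epithelial tissue. Other chosen genes of the same compartments were SERP1, a small protein of the translocon (8.69 to 9.39 against 7.94 to 8.60 in mesenchymal tissue), and TMX1, a membrane-bound thioredoxin-related protein (8.9995 to 9.42 against 7.82 to 8.71). COPG2, a coatomer subunit, lay between 8.21 and 8.58 against 7.17 and 8.07, and NUS1, a subunit of dolichol synthesis, between 5.70 and 6.22 against 5.01 and 6.07. Of the glycosylation enzymes, GALNT7 lay between 6.32 and 7.65 against 4.07 and 5.20, B4GALT3, a galactosyltransferase, between 6.34 and 7.06 against 5.66 and 6.39, and CHSY1, a chondroitin synthase, between 7.61 and 8.06 against 6.21 and 7.21. FAM198B, a Golgi protein, lay between 8.85 and 9.39 against 7.92 and 8.73. In epithelial tissue each gene from SERP1 to FAM198B overlapped. CHSY1 had its lowest epithelial value in the animals with high CSN2 (6.82 to 7.71 against 6.96 to 7.62).

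The wider lists of these pathways differed in their r to CSN2. Of 51 measured genes of the endoplasmic reticulum, protein folding and export, XBP1 and PDIA3 were among the 60, 8 had an r over 0.5 over 30 arrays, and the median r was 0.22, against 0.01 over all ranked genes, of which 377 of 6565 were over 0.5. The other 6 over 0.5 were TMED10, PDIA6, HSPA5, COPA, STT3B and HSP90B1. Of 24 genes of milk fat synthesis and the fat globule, 0 had an r over 0.5 and the median was -0.25 (-0.63 in mesenchymal tissue). The 12 measured adipocyte genes had a similar median of -0.27 (-0.75 in mesenchymal tissue). The part of fat cells in the r of the milk fat genes was not tested. Of 16 genes for prolactin signalling and the control of lactation, EHF alone was over 0.5 (0.61), while PRLR, the prolactin receptor, stood at 0.30 and STAT5A at 0.16. Of 11 other milk and whey proteins, CSN1S2 and PIGR were among the 60, 5 were over 0.5, and the median was 0.49 (0.58 in mesenchymal tissue). Of 6 genes of lactose synthesis, PGM2 alone was over 0.5, and the median was 0.15 (0.20 in mesenchymal tissue).

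Receptors, ligands and signalling proteins formed another portion of the 60. AREG, amphiregulin, is a ligand of the epidermal growth factor receptor that carries the oestrogen signal in duct growth. Its mesenchymal arrays read 8.10 (957), 7.38 and 7.09 (963), 6.92 and 7.33 (964) but only 3.19 in animal 950. In the other 6 animals AREG lay between 0 and 3.35, so animal 950 fell inside their range. Its epithelial arrays read 5.83 to 7.67 in the 4 animals and 0 to 6.57 in the others. F2R, the thrombin receptor PAR1, lay between 8.73 and 9.56 against 6.91 and 8.19 in mesenchymal tissue and between 8.08 and 9.81 against 6.50 and 8.33 in epithelial tissue. THBS1, thrombospondin-1 of the extracellular matrix, lay between 9.10 and 9.66 against 7.24 and 8.59 in mesenchymal tissue and between 8.63 and 9.48 against 8.07 and 9.18 in epithelial tissue.

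PELI1, a ubiquitin ligase of innate immune signalling and second in rank, lay between 8.77 and 9.23 against 7.17 and 8.26 in mesenchymal tissue. In epithelial tissue it lay between 8.39 and 9.03 against 7.65 and 8.59, where only animal 957 fell within the range of the others. CD93, a receptor best known from endothelium and myeloid cells, had one of the wider spans, 7.76 to 9.73 against 4.65 to 7.68 in mesenchymal and 8.20 to 9.02 against 4.78 to 8.39 in epithelial tissue. SEMA4D, a semaphorin, lay between 5.95 and 7.30 against 5.15 and 6.24 in mesenchymal tissue, and NDFIP2, an adaptor of NEDD4 ubiquitin ligases, between 8.47 and 9.42 against 7.06 and 8.25. LSR, a lipoprotein receptor that also sits at tricellular junctions, lay between 6.24 and 7.39 against 4.28 and 5.79. TES, a LIM protein of focal adhesions, lay between 7.54 and 8.05 against 6.41 and 7.36. CSNK1A1, a casein kinase 1 isoform of Wnt signalling, lay between 9.47 and 9.89 against 8.87 and 9.45. In epithelial tissue SEMA4D, NDFIP2, LSR, TES and CSNK1A1 overlapped.

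The remaining signalling genes overlapped in both tissues. In mesenchymal tissue RAP1B, a Ras-related GTPase, lay between 9.88 and 10.30 against 9.09 and 9.93, and SRGAP1, a GTPase-activating protein, between 6.08 and 6.88 against 5.46 and 6.25. ETV5, an ETS transcription factor, lay between 5.53 and 6.96 against 4.46 and 6.01. MRAP, an accessory protein of the melanocortin 2 receptor, lay between 3.24 and 5.68 against 0 and 3.47, most of it below the arrays' 30th percentile.

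Among genes of membrane traffic and the cytoskeleton, CHMP1B, an ESCRT-III subunit, lay between 8.51 and 9.02 against 7.37 and 8.54 in mesenchymal tissue, and SEPT11, a septin, between 9.25 and 9.82 against 7.65 and 9.06. REPS1, an endocytosis protein, lay between 7.89 and 8.28 against 7.16 and 7.91. COMMD10 lay between 6.25 and 7.06 against 5.81 and 6.12, and TMEM131 between 8.59 and 9.20 against 8.06 and 8.48. AP5Z1, an adaptor complex subunit, overlapped (7.83 to 8.05 against 6.94 to 8.02). In epithelial tissue each of these 6 genes overlapped between the same animals.

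Metabolic enzymes were ALPL, PDXK, REXO2, ODC1, GULO, KYAT1 and ACO1. ALPL, tissue-nonspecific alkaline phosphatase, measured 6.62 (957), 6.40 and 6.05 (963), 6.35 and 6.70 (964) and 4.73 (950) on the mesenchymal arrays, and 2.74 to 5.05 in the other animals. Animal 950 lay within their range in epithelial tissue too (4.68, against 4.33 to 5.27). GULO, the last enzyme of vitamin C synthesis, measured 4.21 (950), 5.98 (957), 5.83 and 5.75 (963) and 5.95 and 6.71 (964) on the mesenchymal arrays, and 3.13 to 5.86 in the other 6 animals. Animal 950 and both teats of 963 thus lay within the range of the others. PDXK, pyridoxal kinase, lay between 7.77 and 8.94 against 7.0034 and 8.10 in mesenchymal tissue. REXO2, a nuclease of short RNAs, lay between 9.41 and 9.93 against 8.48 and 9.4968, and ODC1, the first enzyme of polyamine synthesis, between 8.03 and 8.82 against 7.17 and 8.25. KYAT1, a kynurenine aminotransferase, lay between 6.88 and 7.93 against 5.99 and 7.36. ACO1, the cytosolic aconitase that also regulates iron-related mRNAs, lay between 9.9972 and 10.61 against 9.10 and 9.96.

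Genes of RNA and the nucleus were ZFP42, a zinc finger protein known from pluripotent cells, WEE1, a kinase that holds back mitosis, MAGOHB of the exon junction complex, the exoribonuclease XRN2, HUS1 of the DNA damage clamp, and SET, a histone chaperone. In mesenchymal tissue WEE1 lay between 6.81 and 7.88 against 6.27 and 6.73, MAGOHB between 7.17 and 7.89 against 5.95 and 6.90, and SET between 10.29 and 10.76 against 9.46 and 10.06. XRN2 (8.81 to 9.20 against 8.21 to 8.96) and HUS1 (7.88 to 8.23 against 7.0035 to 8.06) overlapped. ZFP42 lay between 3.54 and 5.80 against 0 and 2.47, below or near the 30th percentile on most arrays, and it was listed at 0 on an epithelial array of animal 964. WEE1 and SET overlapped in epithelial tissue.

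The other chosen genes were A2M, a broad protease inhibitor, RARRES1, CRYBG1, TRNP1, LHFPL2, ROPN1L, FAM151B, C4H1orf226, C17H8orf4, LOC396566 and LOC102162486. A2M lay between 8.31 and 10.14 against 5.30 and 8.44 in mesenchymal tissue. In the 9 epithelial arrays of the animals with low CSN2 it ran against the keratin mean (r = -0.93, or -0.61 without the inverted array of animal 1103), with its highest value there, 8.69, in the inverted teat of animal 1103. LOC396566 lay between 6.26 and 8.23 against 4.04 and 6.49 and followed the keratins most closely of the 60 within the 9 mesenchymal arrays of the 6 animals (r = 0.91). FAM151B lay between 6.52 and 7.50 against 5.78 and 6.48, LOC102162486 between 7.81 and 8.46 against 7.06 and 7.64, C4H1orf226 between 5.24 and 6.44 against 3.64 and 5.25, and C17H8orf4 between 7.59 and 8.18 against 5.94 and 7.83. RARRES1 lay between 7.80 and 9.17 against 5.78 and 8.11, LHFPL2 between 7.92 and 9.55 against 7.53 and 8.64, and TRNP1 between 5.44 and 6.57 against 4.74 and 5.48. CRYBG1 (7.39 to 7.68 against 6.9975 to 7.52) and ROPN1L (6.30 to 7.43 against 5.58 to 6.93) overlapped.

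Second probe sets of the chosen genes were not ranked, but they measure the same genes on the same arrays. They are therefore no independent check, and nothing further is read from a high r among them. In all, 27 of the 60 genes had 41 further probe sets, and their median r to CSN2 was 0.42, against 0.04 over 3246 further probe sets of all genes. Of the 41, 16 were over 0.5, against 4.62% of the 3246, and 13 were below 0.2. The highest were those of CSNK1A1 (0.72), RARRES1 (0.71), CHMP1B (0.71) and RHOU (0.68). For ACO1 the probe sets disagreed in sign: the chosen one had an r of 0.80 over the mesenchymal arrays and both others stood at -0.86. The chosen ACO1 probe set had the highest mean, as the rule asks, and the others had means of 8.73 and 6.44. CD93 (further probe set at -0.46 over 30 arrays) and ODC1 (-0.16) disagreed in sign as well. Also below 0.2 were both further probe sets of PELI1 (0.18 and 0.10), and those of SEPT11 (0.17) and LOC102162486 (0.14). Another one of CSNK1A1 stood at 0.15. The levels given for all 60 genes hold for their chosen probe set only.

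The tissue comparison asked which genes differed between epithelial and mesenchymal tissue of normal teats. GALNT7, PIGR and LSR were higher in epithelial tissue, and no chosen gene was higher in mesenchymal tissue, by limma over all probe sets (adjusted p under 0.05). GALNT7 measured 6.91 ± 0.55 in epithelial and 5.70 ± 1.22 in mesenchymal tissue (SD, n = 10), a log2 difference of 1.21 ± 0.40 (SE, adjusted p = 0.024), and it was higher in 10 of 10 animals. PIGR measured 5.82 ± 0.74 and 4.07 ± 1.88 (difference 1.76 ± 0.60, limma adjusted p = 0.0292, higher in 8 of 10). LSR measured 6.55 ± 0.49 and 5.53 ± 1.19 (difference 1.02 ± 0.38, limma adjusted p = 0.047, higher in 8 of 10). The SD was wider in mesenchymal tissue for all 3.

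These were 3 of 58 tested genes, against 33.5% of 18286 probe sets and 37.5% of 6141 named genes called. ZFP42 and MRAP did not pass the filter on low values, and 7 of 58 had an unadjusted p under 0.05. The choice used these same arrays and favours genes with a spread between animals. With the animal as a fixed term, 9 were called, against 42.7% of probe sets and 45.8% of named genes. That fit added MAGOHB (0.39 ± 0.10, higher in 10 of 10 animals), LOC396566 (1.30 ± 0.35), GULO (0.79 ± 0.21), AREG (2.25 ± 0.65) and THBS1 (0.47 ± 0.18) as higher in epithelial tissue. CSN1S2 was lower there, with a difference of -1.04 ± 0.40 (limma adjusted p = 0.0496) and a lower value in 9 of 10 animals. By far the widest gaps were in animals 950 (6.12 in epithelial, 9.53 in mesenchymal tissue) and 964 (4.64 and 8.64). CSN1S2 exceeded the 30th percentile on only 10 of 30 arrays. Among genes not called in either fit, PDXK had the smallest p on the mesenchymal side, at -0.24 ± 0.20 (limma adjusted p = 0.362). Without animal 1040, 1059, 1103 or 1109 the count without the animal term was 0, and without 957 it was 5.

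The tissue difference varied between animals. In animals 950, 957, 963 and 964, 21, 16, 22 and 10 of the 60 genes were higher in epithelial tissue, with medians of -0.16, -0.25, -0.10 and -0.31. In 1037, 1040, 1058, 1059, 1103 and 1109 the counts were 44, 53, 45, 49, 45 and 43, with medians of 0.21, 0.46, 0.37, 0.46, 0.37 and 0.27. The median over all ranked genes was below 0 in all 10 animals, at -0.21, -0.15, -0.19 and -0.25 in the first 4 and at -0.07, -0.12, -0.05, -0.07, -0.26 and -0.18 in the other 6. The genes' median thus lay above that of ranked genes in 950 and 963, below it in 957 and 964, and above it in each of the other 6 animals. The keratin difference between the tissues of an animal lay between -0.29 and 0.51 in the first 4 and between 2.95 and 7.87 in the other 6. The keratin difference was thus larger in each of those 6 animals than in each of the 4. The part of the keratin-bearing cells in the genes' tissue difference was not tested. The GALNT7 difference was smallest in animal 950 (0.15) and largest in animal 1103 (2.93).

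**Figure D4:**
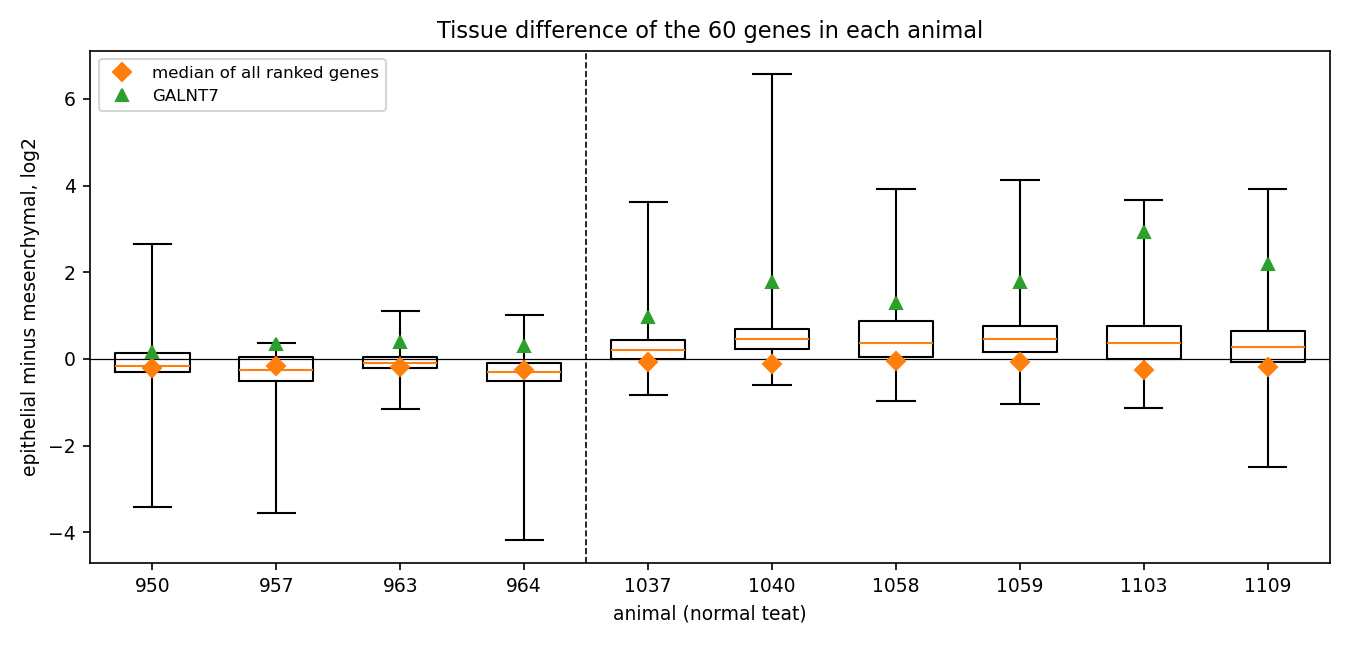
Epithelial minus mesenchymal log2 value of the 60 genes in the normal teat of each animal (boxes span the quartiles, whiskers the full range), with the median of all ranked genes (diamonds) and GALNT7 (triangles). The boxes of animals 950, 957, 963 and 964, left of the dashed line, have medians from -0.31 to -0.10, and those of the other 6 from 0.21 to 0.46.

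The teat comparison, inverted against normal teats of the 5 affected animals, called none of the 60 genes. In epithelial tissue 0 of 56 tested genes passed, as did 0.0% of 17661 probe sets (limma), with 0 of 56 at p under 0.05 before adjustment. With the animal as a fixed term 2 were under 0.05, and 0 without the epithelial inverted array of animal 1103. CSN1S2, ZFP42, MRAP and DNM3 did not pass the filter there. The smallest p belonged to SRGAP1 (-0.23 ± 0.17) and TRNP1 (-0.52 ± 0.39) among lower and to A2M (0.53 ± 0.46) and CHSY1 (0.20 ± 0.19) among higher genes, each with a limma adjusted p of 1.0. The members' median was -0.07 with 15 genes higher and 41 lower, and 0.03 with 36 higher and 20 lower without the epithelial inverted array of animal 1103.

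In mesenchymal tissue 0 of 57 tested genes passed, again 0.0% of 17839 probe sets (limma), with 0 of 57 at p under 0.05 before adjustment, or 2 once the animal was fitted as a fixed term. CD93 (1.03 ± 0.84, higher in 4 of 5 animals) and REXO2 (0.32 ± 0.28) had the smallest p among higher and C4H1orf226 (-0.33 ± 0.46) and SEMA4D (-0.28 ± 0.40) among lower genes, at a limma adjusted p of 1.0. The median difference was 0.17, with 51 genes higher and 6 lower, where named genes had a median of 0.07. After quantile normalisation the split was 44 and 13. By animal, 964 had 55 of 60 genes higher in its inverted teat in epithelial and 53 in mesenchymal tissue, while in 963 46 and 42 of 60 were lower. The genes' medians were 0.33 and 0.37 in 964 and -0.16 and -0.09 in 963. Those of all ranked genes had the same signs, at 0.105 and 0.19 in 964 and -0.08 and -0.02 in 963. CSN2 differed between these teats by 2.18 in the epithelial and 0.03 in the mesenchymal tissue of 964, and by -0.26 and -1.82 in 963. In the mesenchymal tissue of 1059 and 1103 the keratin mean was higher in the inverted teat by 3.87 and 6.38, where 45 and 40 of 60 genes were higher. The genes' medians there were 0.22 and 0.22, against -0.02 and 0.06 over ranked genes. Whether the keratin difference bears on the genes was not tested.

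**Figure D5:**
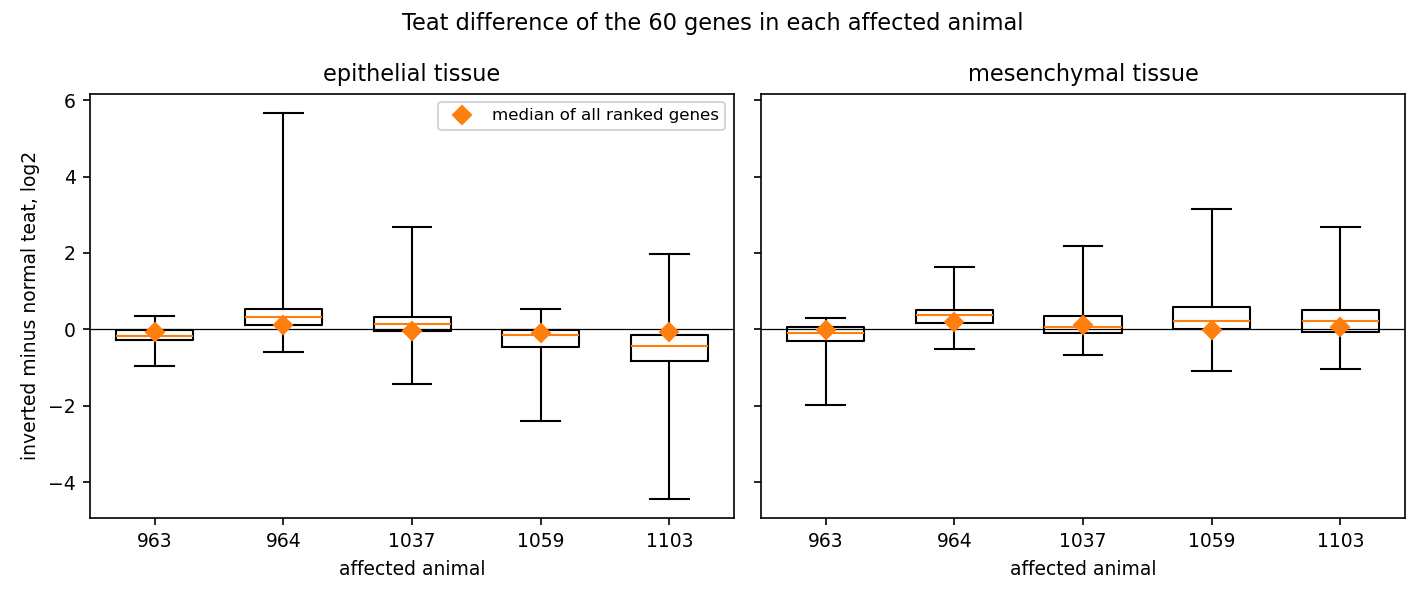
Inverted minus normal teat log2 value of the 60 genes in each of the 5 affected animals, in epithelial (left) and mesenchymal tissue (right); boxes span the quartiles, whiskers the full range, and diamonds mark the median of all ranked genes. Animal 964 lies above 0 in both tissues, with medians of 0.33 and 0.37, animal 963 below it (-0.16 and -0.09), and animal 1103 has -0.44 and 0.22.

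Whether the teat difference itself differed between the tissues was tested as an interaction over the 20 arrays of affected animals. It called 0 of 57 genes and 0.0% of 18265 probe sets (limma), with 0 of 57 at p under 0.05 before adjustment. With the animal as a fixed term 4 were under 0.05, and 1 without the epithelial inverted array of animal 1103. TRNP1 had the smallest p (-0.83 ± 0.47, limma adjusted p = 1.0), followed on the same side by CD93 (-1.75 ± 1.20). C4H1orf226 (0.59 ± 0.57) and CHSY1 (0.16 ± 0.36) led the other side. The median was -0.22, with 9 genes above and 48 below 0, where named genes had a median of -0.11. It was -0.14 without the epithelial inverted array of animal 1103.

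Affected against non-affected animals, compared in normal teats, called none of the 60 in either tissue. In epithelial tissue 0 of 56 genes passed, and 0.0% of 17661 probe sets (limma), with 0 of 56 at an unadjusted p under 0.05. THBS1 had the smallest p, with 8.54 ± 0.43 in affected and 9.06 ± 0.34 in non-affected animals (SD, n = 5; difference -0.53 ± 0.26, limma adjusted p = 0.999). CHMP1B (-0.36 ± 0.26) came next among lower genes, and GULO (0.64 ± 0.47) and ROPN1L (0.32 ± 0.27) had the smallest p among higher genes. In mesenchymal tissue 0 of 57 passed, and 0.0% of 17839 probe sets (limma), with 0 of 57 at an unadjusted p under 0.05. ETV5 (0.70 ± 0.39) and KYAT1 (0.55 ± 0.34) had the smallest p among higher genes and CHMP1B (-0.48 ± 0.29) and ACO1 (-0.32 ± 0.25) among lower genes, each with a limma adjusted p of 1.0. The median over the genes was 0.01 in epithelial and -0.01 in mesenchymal tissue. Its sign depended on single animals: without 1 animal it lay between -0.08 (without 963) and 0.08 (without 950) in epithelial tissue. In mesenchymal tissue it lay between -0.17 (without 963, 15 genes higher and 41 lower) and 0.12 (without 957, 36 higher and 20 lower). The comparisons of teat and of status within a tissue share the normal teats of affected animals.

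The list itself depended on how likeness was measured. Ranked within the 15 epithelial arrays, 25 of the 60 genes stayed among the first 60, and within the 15 mesenchymal arrays 17 did. GALNT7, PELI1, RHOU and THBS1 were in both of those lists. The first 60 of the epithelial ranking had a median r of 0.70 over the mesenchymal arrays, 38 of them over 0.5, against 19.4% of ranked genes. The first 60 of the mesenchymal ranking had a median r of 0.39 over the epithelial arrays, 16 of them over 0.5, against 4.08%. The tissues come from the same 10 animals, so neither is an independent sample. RHOU alone stayed in the list under all 19 settings tried.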

How the data were processed

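Pig teat tissue was hybridised to 30 Affymetrix Porcine Genome arrays, each labelled from 500 ng of total RNA. The authors deposited probe set values on a log2 scale, the base being inferred from the values. Per the submitters' processing notes the tools were GCOS 1.1.1 and PLIER, without their role or order. No label states a normalisation between arrays. Between 358 and 754 values per array are 0, which can be a failed estimate. Of 24123 probe sets 10099 have 1 gene symbol in the platform table, 198 have several and 13826 have none, and the Entrez IDs of 9989 were found in a RefSeq gene table. No genome was used.

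Tests used lmFit and eBayes of limma 3.58.1 (R 4.3.3) with Benjamini-Hochberg adjustment over all tested probe sets and a threshold of 0.05. The filter on low values kept probe sets that exceeded the 30th percentile of the array on 5 or more arrays entering a fit, and 124 control probe sets were left out. Teat and status were fitted in the 15 arrays of each tissue, the tissue comparison in the 20 arrays of normal teats with status as a covariate, and the interaction in the 20 arrays of affected animals. The fits were tested on simulated data. Animal numbers, from the sample descriptions, pair the arrays: after removal of group means r was 0.25 to 0.55 (epithelial) and 0.14 to 0.67 (mesenchymal) between the teats of an animal, and 0.01 to 0.69 between its tissues.

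The members and the gene lists were chosen with earlier results of these data known. All 60 genes were to be named. Full values were set for the first 20, those at the limit, the 5 highest and lowest r per tissue, members of lists, and in each comparison the called genes or else the 2 smallest p per direction. Genes outside this rule were named after their values were seen. Alternatives were quantile normalisation, no or a stricter filter (50th percentile), the animal as a random or fixed block, Spearman's rank correlation, other probe sets, other sets of arrays and leaving out each animal. The fits and values of r without the epithelial inverted array of animal 1103 were added after the data were seen. The number of arrays limits the precision.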

Additional observations from a re-analysis of the deposited data

Results flagged for a closer look

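In 126 groups of 5 arrays checked for 21 genes, 7 held a value far from the other 4 by Dixon's criterion, which chance alone meets in about 1 in 20 groups. CSN1S2 accounted for 3 of them. In normal teats of non-affected animals it was highest in animal 950 in mesenchymal tissue (9.53, next 4.71) and in epithelial tissue (6.12, next 4.35), and in mesenchymal tissue of inverted teats it was highest in animal 964 (8.62, next 4.65). F2R was highest in animal 950 in epithelial tissue of normal teats of non-affected animals (9.39, next 8.32). In the same group THBS1 (8.47, next 9.11) and REPS1 (7.59, next 7.92) were lowest in animal 1058. SEPT11 was highest in animal 963 in epithelial tissue of normal teats of affected animals (9.31, next 8.70).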

How the results depend on the processing

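The count of chosen genes called between tissues was 3. It was 12 after quantile normalisation, 7 with the animal as a random replicate block and 9 with it as a fixed replicate block; leaving out 1 animal gave 0 to 5. Quantile normalisation moved the median tissue difference of named genes from -0.15 to -0.05 and that of the chosen genes from 0.15 to 0.29, with 49 higher and 9 lower in place of 43 and 15. The counts of 0 in the teat, status and interaction comparisons stayed at 0 under all alternatives, the replicate block included, where it could be fitted.

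Of the 60 genes 28 were kept with Spearman's rank correlation, 25 with epithelial and 17 with mesenchymal arrays, 18 with animal means, and 39 to 51 without 1 animal (39 without 950 or 963). The median r was 0.61 in epithelial tissue: 0.53 with Spearman's rank correlation, 0.34 within animals 950, 957, 963 and 964, -0.35 within the others, 0.33 with other probe sets, 0.64 without the epithelial inverted array of animal 1103, and 0.56 to 0.66 without 1 animal. In mesenchymal tissue it was 0.81, then 0.71, 0.35, -0.0738 and 0.52 in the same order, 0.80 after quantile normalisation, and 0.78 to 0.84 without 1 animal. The median was thus below 0 within the 6 animals with low CSN2, where CSN2 was above the array median on only 3 of 18 arrays. The median over all ranked genes was below 0 there too, at -0.17 in epithelial and -0.09 in mesenchymal tissue. Why these medians were below 0 was not tested. Of 382 values of 25 gene and comparison pairs, 16 lost the call, 2 gained it and 0 changed sign. Status compares different animals, so it has no fixed animal term.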

Other observations

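At the other end of the ranking, the 10 genes with the lowest r to CSN2 over 30 arrays were OAF, PHLDA3, FOLH1B, NFIL3, SMAD3, LOC100512977, GSN, LANCL2, C9H1orf74 and YWHAH. PHLDA3, a p53 target that restrains Akt, lay between 7.92 and 8.49 on the epithelial arrays of animals 950, 957, 963 and 964 and between 8.73 and 9.42 on those of the other 6. On the mesenchymal arrays it lay between 8.24 and 8.89 against 8.87 and 10.02. SMAD3, which carries the signal of transforming growth factor β, lay between 4.77 and 5.62 against 5.73 and 6.94 in mesenchymal tissue and overlapped in epithelial tissue (4.95 to 5.81 against 5.43 to 6.17). GSN, the actin-severing protein gelsolin, lay between 11.81 and 12.45 against 12.32 and 13.05 in epithelial tissue.

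Of 6565 ranked genes, 5 lay wholly lower on the epithelial arrays of the 4 animals (CLK3, MACF1, OAF, PHLDA3 and UCK1). In mesenchymal tissue 60 did, and in both tissues 0 did. Wholly higher were 5 ranked genes (0.0762%) in epithelial and 168 (2.56%) in mesenchymal tissue. The 60 lower genes are not the 60 chosen by their r to CSN2. Named among the lower ones after their values were seen were the respiratory chain genes NDUFA10, NDUFS7 and NDUFV1 and the citrate synthase gene CS. So were the fatty acid oxidation genes ACADS, ACADVL, ETFB and ETFDH, and the lipid and retinol carriers FABP3 and RBP4. The share of such genes among all ranked genes was not counted. The adipocyte list was lower on the same arrays, and its part in these values was not tested.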
